A study of Mus musculus with 32 samples.

Results

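Endothelial cell genes were followed in 4 mouse organs through transcription, cisplatin damage and excision repair. The set held 36 genes listed by symbol, all of which were found by identifier among the 25059 genes of the deposited RNA-seq files and in the files of all assays. The list covers receptors of the vascular endothelium, proteins of its junctions and surface, transcription factors of the lineage, and markers of specialised vessels, and no measured value of these files was part of the rule that defined it. The study took kidney, liver, lung and spleen from wild-type C57BL/6J female mice of 6 to 7 months. Treated mice received a single intraperitoneal dose of cisplatin at 10 mg per kg, and control mice received saline. Damage-seq, XR-seq and RNA-seq were made from cisplatin-treated organs with 2 libraries per organ and assay, and RNA-seq also from 2 control libraries per organ. The sample tags give 2 h after treatment, whereas the protocol has injection at ZT1 and sacrifice at ZT5, that is 4 h. Whole organs were used, so the endothelium was measured together with all other cells of each organ. The labels of the lung and spleen RNA-seq libraries are used as they now stand, after a correction by the submitters that exchanged control and cisplatin.

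Endothelial cells line every blood and lymphatic vessel. VEGF and angiopoietin receptors govern their growth and stability, cadherin and claudin junctions set the tightness of the vessel wall, and ETS and SOX factors maintain their identity. The lung holds a very dense capillary bed wrapped around the alveoli, the kidney has fenestrated glomerular and peritubular capillaries, and the sinusoids of liver and spleen are lined by scavenger endothelium with its own receptors. Cisplatin joins adjacent guanines (GG) of DNA. Damage-seq reads mark adducts still in the DNA, XR-seq reads are the oligomers cut out by nucleotide excision repair, and both are counted per gene on the strand that is transcribed (TS) and on its complement, the non-transcribed strand (NTS). In transcription-coupled repair, RNA polymerase stalled at an adduct on the TS recruits the repair machinery, while global repair acts on both strands.

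Reads on genes ranged from 1571167 to 6441367 per Damage-seq library, from 10658675 to 59779770 per XR-seq library and from 15619474 to 162270280 per RNA-seq library. The pair of lung control libraries and the pair of spleen control libraries stood much closer to each other than any other RNA-seq pair (chi-square over degrees of freedom 2.75 and 2.98, against 39.3 to 349 elsewhere). Each of these pairs was therefore summed and counted as 1 sample, and the lone control was assumed to vary like the other groups. Damage-seq pairs had indices of 1.43 to 3.11, so that their replicate error was close to counting error, and XR-seq pairs had 7.26 to 32.7. All Damage-seq pairs but 1 (kidney NTS) thus met the limit of 3 at which RNA-seq controls were summed, but they were kept as 2 replicates, since summing them would leave 1 sample per organ and no test. If the libraries of a pair were not independent, the Damage-seq p-values below would be too small. The study calls its replicates biological but the labels tie no library to an animal, and the p-values measure only the spread between these libraries. Cdkn1a, which cisplatin is known to induce, was at 3.97 and 8.67 RPKM in kidney controls and at 117 and 133 RPKM after cisplatin (log2 change 4.33 ± 0.65, adjusted p = 0.0129 in edgeR). Its change was 3.05 ± 0.65 in liver (adjusted p = 0.0528), 1.90 ± 0.80 in lung (adjusted p = 0.727) and 1.43 ± 0.80 in spleen (adjusted p = 1), so it passed in kidney alone, although both cisplatin libraries lay above both controls in each organ.

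In untreated animals the endothelial genes were far more abundant in lung RNA than in the other organs. Between the lung control and the mean of kidney, liver and spleen controls, 34 of the 36 genes were higher in lung, 1 (Stab2) was lower and 1 (Flt4) did not pass, against 18.3% of all genes higher and 5.85% lower (edgeR, difference beyond 0.4 on the log2 scale, adjusted p under 0.05). The median log2 difference was 2.66 over the set and 0.03 over all genes tested. Summed over the set, the level was 2405 to 2500 RPKM (reads per kilobase of exon, scaled to library size) in lung controls, 334 to 478 RPKM in kidney, 360 to 410 RPKM in liver and 300.0 to 311 RPKM in spleen. In whole organs, fewer endothelial cells and less RNA per endothelial cell cannot be told apart. Lung was higher for 28 genes against kidney alone (19.5% of all genes), for 30 against liver (26.0%) and for 31 against spleen (15.5%).

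The VEGF receptors showed the pattern to different degrees. Kdr, the main signalling receptor for VEGF-A, was at 26.0 and 26.9 RPKM in the lung controls, 7.95 and 12.0 in kidney, 16.40 and 15.97 in liver, and 4.77 and 5.04 in spleen. Lung was above every other control library, by 1.54 ± 0.41 (SE) on the log2 scale (adjusted p = 0.019). Flt1, the high-affinity decoy receptor, was at 16.7 and 17.5 RPKM in lung and between 1.94 and 7.92 RPKM in the other organs (log2 difference 2.48 ± 0.32). Flt4, the receptor of lymphatic endothelium that sinusoids also carry, was the exception: it stood at 4.06 and 4.14 RPKM in lung, below 7.38 and 8.83 in liver, and its log2 difference of 0.31 ± 0.43 did not pass (adjusted p = 0.725). Tek, the angiopoietin receptor, was at 49.2 and 52.1 RPKM in lung against 2.44 to 13.8 RPKM elsewhere, a log2 difference of 3.02 ± 0.35. Its relative Tie1 (2.14 ± 0.25) and the endothelial phosphatase Ptprb (2.63 ± 0.43), which acts on Tek, were higher in lung as well.

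Junction and surface proteins ranged from a log2 difference of 1.22 to one of 3.81. Pecam1, an adhesion molecule of endothelium, platelets and some leukocytes, was at 105 and 110 RPKM in lung controls, 10.5 and 16.7 in kidney, 8.20 and 9.87 in liver and 26.5 and 28.5 in spleen, with a log2 difference of 2.86 ± 0.39. Cdh5, the cadherin of endothelial adherens junctions, was at 131 and 135 RPKM in lung and between 7.15 and 19.5 RPKM elsewhere (3.54 ± 0.45). Cldn5, a claudin of tight junctions, was at 245 and 243 RPKM in lung and between 9.92 and 29.0 RPKM elsewhere (3.81 ± 0.34). For all of these the lung libraries did not overlap with any other control library. Esam (2.71 ± 0.22), Robo4 (1.55 ± 0.34), Eng (1.91 ± 0.45), a coreceptor for BMP9, and Plvap (1.22 ± 0.30), which forms the diaphragms of fenestrae and caveolae, were higher in lung by less. Emcn, a sialomucin of capillaries and veins, was higher in lung than in the mean of the other organs (1.81 ± 0.28) although kidney had the highest level, 14.6 and 15.7 RPKM against 6.57 and 6.98 in lung.

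Of the transcription factors, Sox7 had the largest difference (4.41 ± 0.33), from 23.5 and 25.0 RPKM in lung against 0.621 to 1.78 RPKM in the other organs. Epas1, the hypoxia-inducible factor of vessels and other cells, reached 387 and 400 RPKM in lung and 17.3 to 62.6 RPKM elsewhere (3.75 ± 0.46). Erg, an ETS factor that is largely restricted to endothelium, differed by 2.68 ± 0.35, Sox18 by 2.28 ± 0.32 and Sox17 by 2.11 ± 0.49. Fli1 and Tal1, which blood cells also express, were highest in spleen, at 27.7 and 29.3 RPKM for Fli1 and 8.495 and 8.948 RPKM for Tal1. Lung had 10.9 and 12.7 RPKM of Fli1 and 3.41 and 3.38 RPKM of Tal1, above kidney and liver, and both passed against the mean of the 3 organs with a log2 difference of 1.29 each.

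Tmem100, Lyve1 and Car4, genes of capillaries and lymphatics, had the largest differences. Tmem100, a membrane protein downstream of ALK1 signalling, was at 254 and 272 RPKM in lung controls and between 0.299 and 0.987 RPKM in every other control library, a log2 difference of 8.98 ± 0.28. Car4, a membrane-bound carbonic anhydrase of alveolar capillaries and of kidney tubules, was at 52.6 and 55.3 RPKM in lung and at 52.3 and 70.9 RPKM in kidney, so that these organs overlapped, while liver and spleen stayed at or below 0.0772 RPKM. Lyve1, a hyaluronan receptor of lymphatic and sinusoidal endothelium, was at 132 and 142 RPKM in lung, 9.303 and 11.55 RPKM in liver and at most 0.408 RPKM in kidney and spleen (7.12 ± 0.72). Vwf, the clotting factor stored in Weibel-Palade bodies, was at 25.0 and 25.5 RPKM in lung and at most 1.94 RPKM elsewhere (5.09 ± 0.34). The adrenomedullin receptor Calcrl differed by 4.83 ± 0.46 and its partner Ramp2 by 3.76 ± 0.29. The ligand Apln differed by 4.82 ± 0.55, but mainly against liver and spleen. Its mean control level was 13.2 RPKM in lung and 12.7 in kidney, against 0.0481 in liver and 0.183 in spleen. The Apln receptor, Aplnr, was at 4.47 and 4.87 RPKM in lung and listed at 0 in both liver controls. For Aplnr lung was thus at least 152-fold higher than the level of 3 reads per liver library. With Aplnr at that bound the median of the set stayed at 2.66.

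The remaining vessel genes followed. Ednrb, the endothelin receptor of endothelium and other cells, differed by 2.01 ± 0.34, Nos3, the endothelial nitric oxide synthase, by 1.54 ± 0.29, its trafficking partner Nostrin by 2.06 ± 0.36 and Gpihbp1, which carries lipoprotein lipase to the capillary surface, by 2.87 ± 0.42. Stab2, a scavenger receptor of sinusoidal endothelium, was reversed. It was at 0.185 and 0.328 RPKM in lung, 1.333 and 1.496 in kidney, 14.03 and 12.74 in liver and 11.2 and 12.2 in spleen, and fell below the other organs by 4.37 ± 0.27 on the log2 scale (adjusted p = 7.85e-06). Over the whole set lung had the highest control level for 30 genes, kidney for 2 (Emcn and Car4), liver for 2 (Flt4 and Stab2) and spleen for 2 (Fli1 and Tal1).

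**Figure D1:**
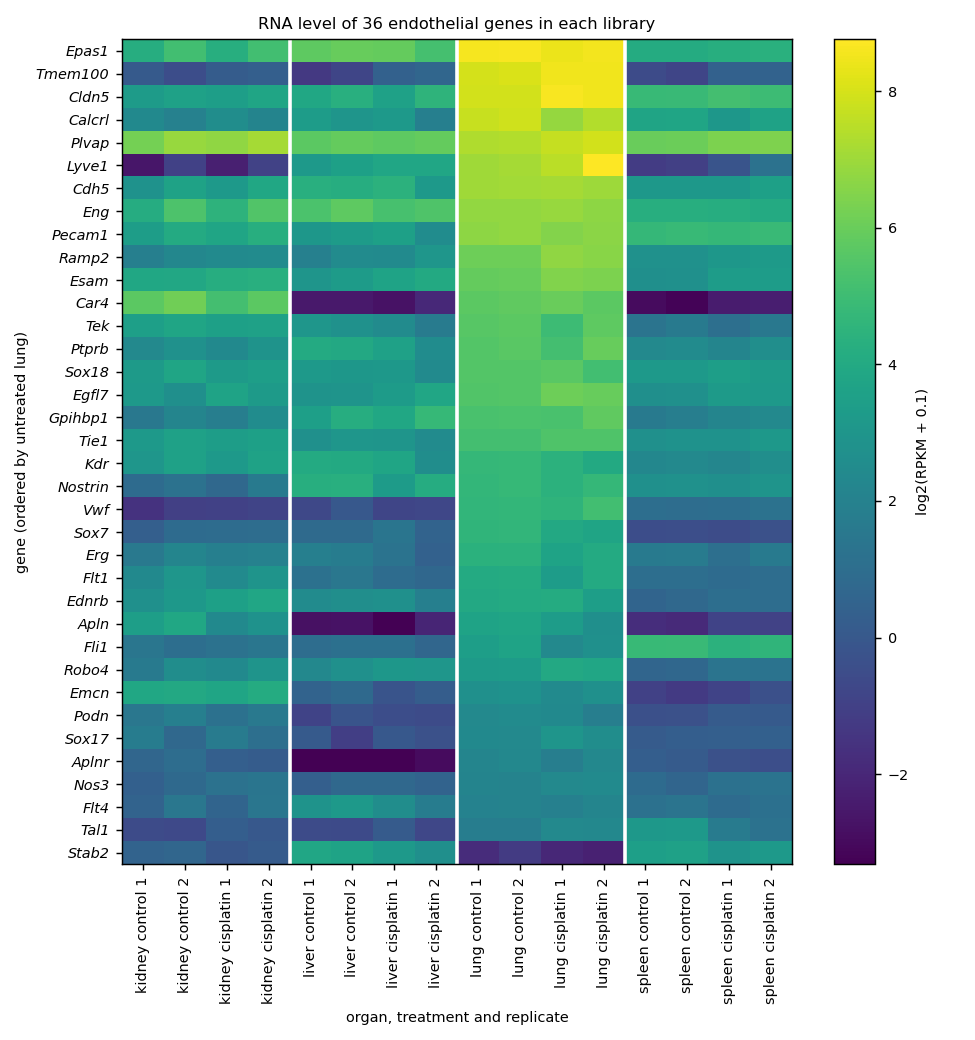
Heat map of RNA level, log2 of RPKM with 0.1 added, for the 36 endothelial genes (rows, ordered by untreated lung) in the 16 RNA-seq libraries (columns, grouped by organ and treatment). The 4 lung columns are the brightest for most genes, and Stab2 is dark in lung and bright in liver and spleen.

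The RefSeq table of promoters (GRCm38.p6, the build of the annotation used) held 19 of the 36 genes. Motifs were searched in the 250 bases before the start given there, and bases that lie inside the annotated gene are left off the sequences printed. The core letters of an ETS site, CAGGAA or CCGGAA on either strand, were found in 11 of these 19 genes (57.9%) and in 35.1% of the 32851 promoters of the table. The GATA letters AGATAA were found in 1 gene (5.3%, against 10.0% of promoters) and the SOX letters ACAATG or ACAAAG in 4 genes (21.1%, against 25.2%). No motif contains another. These are matches of letters and not measured binding. Promoters of the 3 receptor genes Kdr, Tek and Flt1 and of Emcn are shown because their RNA levels were compared above, and they range from no match to 2 matches; capitals mark the ETS core on either strand. Kdr lies at chr5:75978459-75978705 on the minus strand, Tek at chr4:94739039-94739288 on the plus strand, Emcn at chr3:137340828-137341066 on the plus strand and Flt1 at chr5:147726012-147726261 on the minus strand, each written 5′ to 3′ on the strand of the gene.
Kdr: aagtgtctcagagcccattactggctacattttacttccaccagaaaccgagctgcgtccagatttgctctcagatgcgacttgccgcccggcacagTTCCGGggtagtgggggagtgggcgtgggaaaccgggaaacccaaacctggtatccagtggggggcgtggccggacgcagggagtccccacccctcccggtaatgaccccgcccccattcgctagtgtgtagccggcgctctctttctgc
Tek: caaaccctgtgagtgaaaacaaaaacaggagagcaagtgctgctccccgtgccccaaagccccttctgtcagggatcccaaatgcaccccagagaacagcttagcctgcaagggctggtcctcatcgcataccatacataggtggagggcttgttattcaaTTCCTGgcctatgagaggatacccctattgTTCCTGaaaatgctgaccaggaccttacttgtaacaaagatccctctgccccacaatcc
Emcn: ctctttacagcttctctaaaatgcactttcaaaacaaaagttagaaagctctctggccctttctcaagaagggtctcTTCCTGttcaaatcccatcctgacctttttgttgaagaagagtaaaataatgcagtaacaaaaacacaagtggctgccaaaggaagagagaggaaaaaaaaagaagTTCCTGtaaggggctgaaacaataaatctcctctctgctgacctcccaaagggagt
Flt1: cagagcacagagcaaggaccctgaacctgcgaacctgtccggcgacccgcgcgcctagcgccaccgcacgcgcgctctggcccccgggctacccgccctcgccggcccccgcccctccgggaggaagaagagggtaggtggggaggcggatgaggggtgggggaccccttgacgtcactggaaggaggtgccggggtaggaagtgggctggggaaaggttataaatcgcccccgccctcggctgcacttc

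Excision repair of the TS followed the same split between organs. In XR-seq, 33 of the 36 genes had more TS reads in lung than in the mean of the other 3 organs and 1 had fewer, where 20.2% of all genes were higher and 14.1% lower (edgeR, adjusted p under 0.05). The median log2 difference was 2.52, against 0.07 over all genes tested. Levels are given as CPM (reads relative to the total of the library) per 1000 GG of the strand, which allows for library size and for the number of possible adduct sites. Such levels are relative to each library, so absolute amounts of repair or of adducts cannot be compared between organs. On that scale the median gene of the set was at 31.9 and 33.6 in the lung libraries, 5.17 and 6.15 in kidney, 4.54 and 4.37 in liver and 7.07 and 8.68 in spleen, while the median of all genes lay between 13.98 and 18.4 in the 8 libraries. The median of the set was thus above that of all genes in lung and below it in the other organs, while single genes departed from this in either direction. For 28 genes both lung libraries lay above the 6 others (15.5% of all genes), and for Stab2 both lay below (7.53%). All XR-seq and Damage-seq libraries used here came from animals given cisplatin, and untreated background in these assays was not analysed here.

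**Figure D2:**
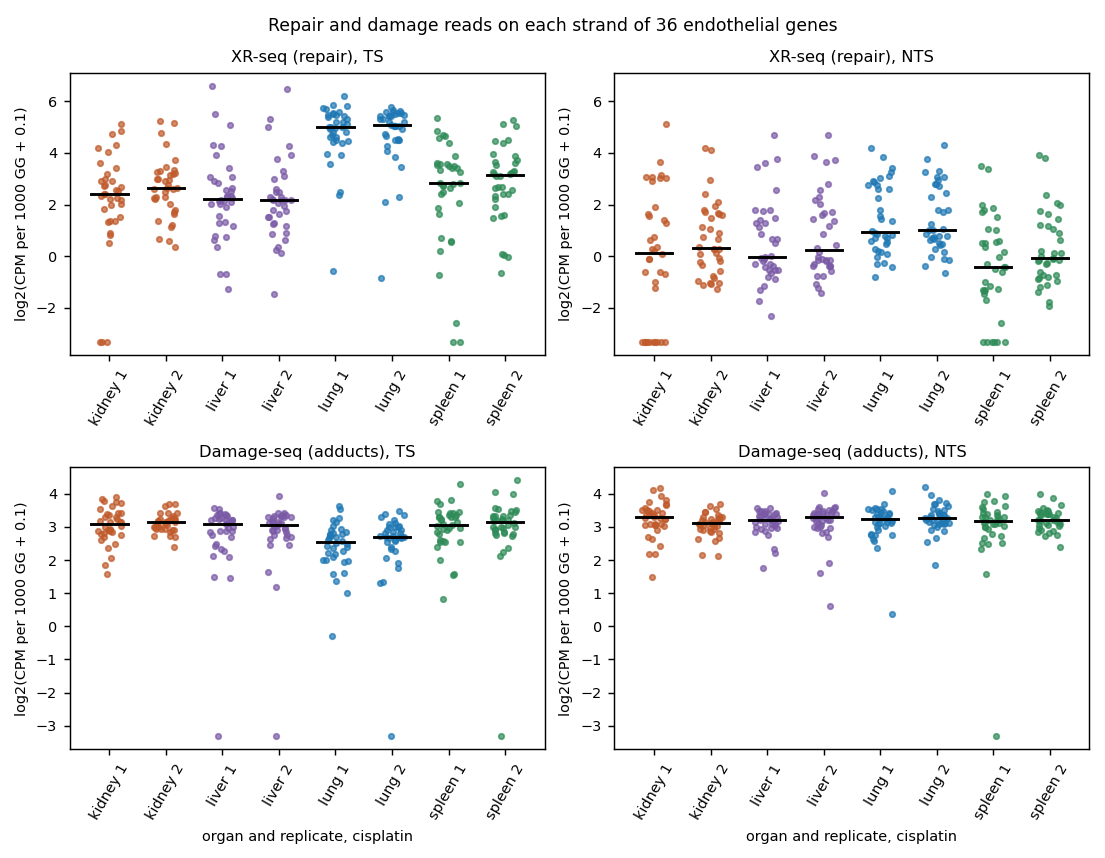
Level per strand in each of the 8 XR-seq and 8 Damage-seq libraries, log2 of CPM per 1000 GG with 0.1 added; each point is one of the 36 genes and the black bar is their median. XR-seq TS medians are 31.9 and 33.6 in lung and at most 8.68 elsewhere before the log, and Damage-seq TS medians are lowest in lung.

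Among the receptors, Kdr was at 24.4 and 26.4 on the TS in lung, and at 4.88 and 4.79 in kidney, 2.41 and 2.27 in liver and 6.92 and 8.43 in spleen, a log2 difference of 2.52 ± 0.16 (adjusted p = 5.05e-08). Flt1 was at 31.7 and 30.5 in lung and between 2.80 and 6.32 elsewhere (2.69 ± 0.14). Tek was at 15.6 and 16.9 in lung and between 1.77 and 7.07 elsewhere (2.32 ± 0.17). None of these overlapped between lung and any other organ. Flt4, whose lung RNA had not passed, was at 44.0 and 42.9 in lung and between 4.41 and 11.6 elsewhere, and its XR-seq difference of 2.60 ± 0.12 passed.

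The junction genes Cdh5 (36.1 and 34.0 in lung, 3.37 to 8.93 elsewhere, 2.72 ± 0.20) and Cldn5 (55.9 and 43.4 in lung, 0 to 9.39 elsewhere, 3.34 ± 0.92) were separated as clearly. Pecam1 was not. It was at 22.7 and 23.1 in lung and at 28.7 and 34.2 in spleen, so that spleen lay above lung and the log2 difference of 1.33 ± 0.12 arose against kidney and liver. Calcrl (22.05 and 22.69 in lung, 25.3 and 22.3 in spleen) and Fli1 (43.5 and 42.6 in lung, 40.4 and 38.1 in spleen) had the same form, with levels in spleen near those in lung. Besides Cldn5, the largest differences were those of Lyve1 (4.74 ± 0.54), Car4 (4.38 ± 0.44), Tmem100 (3.78 ± 0.89), Vwf (3.34 ± 0.19), Aplnr (3.26 ± 0.74), Gpihbp1 (2.96 ± 0.49) and Sox17 (2.93 ± 0.39). Car4 was at 24.1 and 32.6 in lung and at 19.5 and 13.0 in kidney. Its difference arose mainly against liver and spleen, which had 0 to 17 TS reads per library. Nos3 differed by 1.99 ± 0.18, Plvap by 2.19 ± 0.23 and Ednrb by 1.62 ± 0.57.

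Some genes departed from this. Stab2 was at 0.570 and 0.465 on the TS in lung against 8.26 and 8.57 in liver and 5.52 and 5.19 in spleen, and fell below the other organs by 2.99 ± 0.14. Sox7 was highest in liver, at 96.0 and 89.3, against 57.2 and 46.4 in lung, whereas its liver RNA was low, at 1.69 and 1.68 RPKM in controls and 2.46 and 1.36 RPKM after cisplatin. Nostrin was also highest in liver, at 44.7 and 40.0 against 29.9 and 32.4 in lung. Podn, a proteoglycan gene, lay between 19.3 and 28.6 in all 8 libraries and its log2 difference of 0.17 ± 0.10 did not pass (adjusted p = 0.198). The annotation places Podn over Scp2 on the same strand, and Scp2 has no counts of its own in these data. The part of Scp2 in the Podn values, here and below, was not tested. Ramp2 overlaps Vps25, which also has no counts, in the same way. Apln, with 4.78 to 5.01 in lung inside the range of the other organs, did not pass either (0.89 ± 0.57, adjusted p = 0.236).

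In kidney and liver most of the set was lower than the mean of the remaining organs, lung among them, and in spleen a smaller part. Against the mean of the remaining organs, 21 genes were lower and 2 higher in kidney (17.5% and 15% of all genes), 26 lower and 3 higher in liver (25.9% and 25.5%), and 11 lower and 5 higher in spleen (13.4% and 15.1%). These contrasts share libraries with that of lung. Lung was part of each mean, so its higher levels by themselves lower the values of kidney, liver and spleen. The counts of lower genes thus in part restate the lung contrast. The genes higher in kidney were Car4 (3.31 ± 0.45) and Podn (0.28 ± 0.10). Those higher in liver were Sox7 (2.66 ± 0.24), Stab2 (2.37 ± 0.14) and Nostrin (1.88 ± 0.18), and those higher in spleen were Pecam1 (1.95 ± 0.12), Calcrl (1.86 ± 0.18), Fli1 (1.74 ± 0.10), Stab2 (1.49 ± 0.14) and Eng (0.64 ± 0.13).

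On the NTS the reads were few. The first kidney library had no NTS read for 10 of the genes and the first spleen library none for 6, which in each case allows up to 3 reads. In lung 9 genes were higher and 2 lower than in the other organs (2.65% and 12.2% of all genes), with a median log2 difference of 1.08 over the set and -0.52 over all genes tested. The higher genes were Tmem100 (4.54 ± 0.75), Gpihbp1 (3.87 ± 1.13), Epas1 (2.31 ± 0.17), Ptprb (2.03 ± 0.35), Erg (1.75 ± 0.27), Tal1 (1.48 ± 0.43), Flt1 (1.08 ± 0.26), Tek (0.82 ± 0.25) and Pecam1 (0.81 ± 0.21), and the lower ones Stab2 (-1.04 ± 0.13) and Podn (-1.02 ± 0.24). Tmem100 was at 14.3 and 13.6 on the NTS in lung and between 0 and 1.49 elsewhere. Of the remaining genes named throughout, Cdh5 (1.07 ± 0.86), Kdr (1.52 ± 0.53), Car4 (1.39 ± 0.84), Nos3 (0.03 ± 0.45) and Vwf (0.33 ± 0.28) did not pass. This count depended on single libraries. Higher genes numbered 14 without the first and 19 without the second kidney library, and 2 without the first and 4 without the second lung library. The 2 lower genes became 1 when either liver or either lung library was left out. Over all genes the calls ranged from 572 to 5504 when 1 library at a time was left out.

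Within a library the strands can be compared directly. In lung the TS exceeded the NTS in XR-seq for 29 genes and fell below it for 1, where 58.1% of all genes were above and 6.45% below, and the median log2 TS to NTS ratio per GG was 3.498 over the set and 2.94 over all genes. The ratio was 5.70 ± 0.50 for Tie1, 5.09 ± 0.66 for Cdh5, 4.69 ± 0.38 for Nos3, 4.56 ± 0.31 for Vwf, 4.39 ± 0.30 for Flt1, 3.89 ± 0.41 for Kdr and 2.93 ± 0.27 for Pecam1. Stab2 had the opposite ratio in lung, -1.74 ± 0.23. Its ratio was also negative in the kidney libraries, at -1.15 and -1.16. It was 0.49 and 0.32 in liver and 1.49 and 1.37 in spleen. To this gene 5 noncoding genes are annotated opposite. In kidney 20 genes were above and 1 below (55.4% and 5.21% of all genes), in liver 18 above and 3 below (50.4% and 6.05%), and in spleen 25 above and 0 below (56.8% and 6.13%). The 3 genes with more NTS than TS repair in liver were Eng (-1.37 ± 0.27), Egfl7 (-1.34 ± 0.28) and Plvap (-1.55 ± 0.37). Each of them overlaps another gene on the opposite strand, Fpgs for Eng, Agpat2 for Egfl7 and Gtpbp3 for Plvap, so that within the overlap their NTS is the TS of that neighbour. Without the first liver library 10 genes were above and 1 below, and without the second 0 were below. Over all genes the calls in liver were 7713 to 8269 with either library left out.

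**Figure D3:**
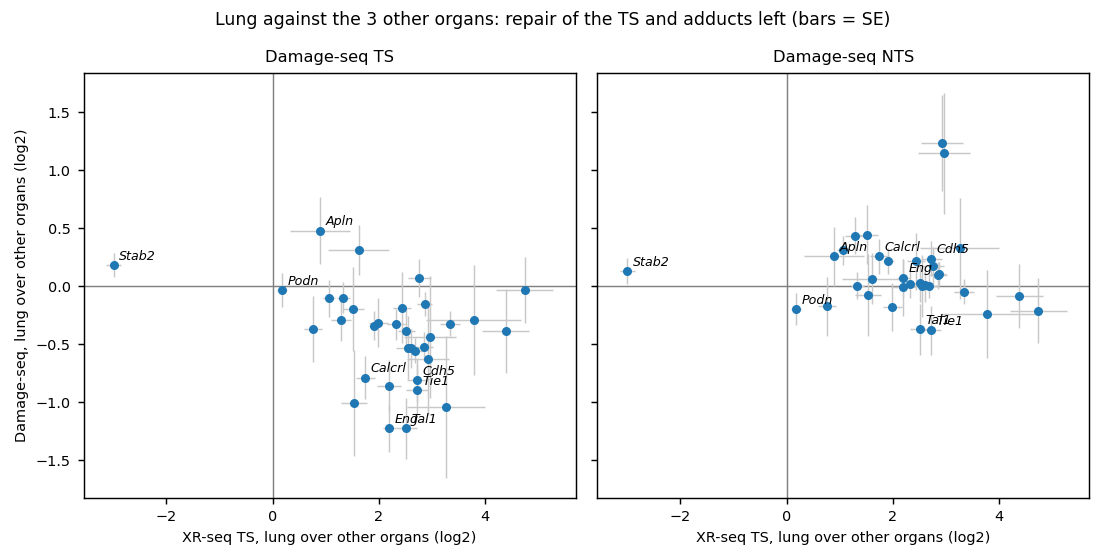
Log2 difference between lung and the mean of the other 3 organs for the 34 genes tested in Damage-seq, with bars for the SE. XR-seq TS is on the horizontal axis, against Damage-seq TS on the left and Damage-seq NTS on the right. Over the whole set XR-seq differences are positive for 35 of 36 genes, and Damage-seq TS differences are negative for 30 of the 34 genes tested.

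Relative to the reads of each library, adducts remaining on the TS were fewer in lung for part of the set. The paper reports that adduct levels as a whole differed between organs, highest in kidney and lowest in spleen. In Damage-seq, 8 of the 34 genes tested had fewer TS reads in lung than in the mean of the other organs and 0 had more, where 1.17% of all genes were lower and 0.748% higher (edgeR, adjusted p under 0.05). Sox18 and Cldn5 had too few reads to be tested. The median log2 difference was -0.36 over the set and 0.04 over all genes tested. The median gene of the set was at 5.74 and 6.43 in the lung libraries and between 8.28 and 8.77 in the other 6, whereas the median of all genes lay between 6.995 and 7.74 in all 8. Both lung libraries lay below the 6 others for 9 genes (3.42% of all genes) and above them for 1, Apln (3.04%). The count rested on both lung libraries: 1 gene passed without the first and 3 without the second. Over all genes the calls ranged from 129 to 704 when 1 library at a time was left out.

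Eng had the largest fall, at 2.87 and 4.10 CPM per 1000 GG in lung, 10.5 and 10.7 in kidney, 7.29 and 6.13 in liver and 7.70 and 7.79 in spleen (-1.23 ± 0.20, adjusted p = 4.05e-05). Both lung libraries were below every other library. Cdh5 was at 4.70 and 4.99 in lung, 6.62 and 8.29 in kidney, 9.63 and 7.27 in liver and 9.14 and 10.1 in spleen (-0.81 ± 0.19, adjusted p = 0.00598). Flt1 was at 5.89 and 6.41 in lung and between 7.87 and 10.6 elsewhere (-0.55 ± 0.11, adjusted p = 0.00119). For both genes lung again did not overlap with any other organ. Tal1 (-1.22 ± 0.26), Tie1 (-0.90 ± 0.22), Plvap (-0.86 ± 0.23), Calcrl (-0.79 ± 0.19) and Ptprb (-0.52 ± 0.13) were the other genes that passed. Kdr (-0.38 ± 0.18), Tek (-0.33 ± 0.13), Vwf (-0.32 ± 0.11), Nos3 (-0.31 ± 0.21), Car4 (-0.39 ± 0.36), Sox17 (-0.63 ± 0.48) and Gpihbp1 (-0.44 ± 0.53) had negative differences that did not pass. Pecam1 (-0.10 ± 0.13), Lyve1 (-0.03 ± 0.28), Ednrb (0.31 ± 0.22), Apln (0.48 ± 0.29) and Stab2 (0.18 ± 0.11) did not pass either.

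**Figure D4:**
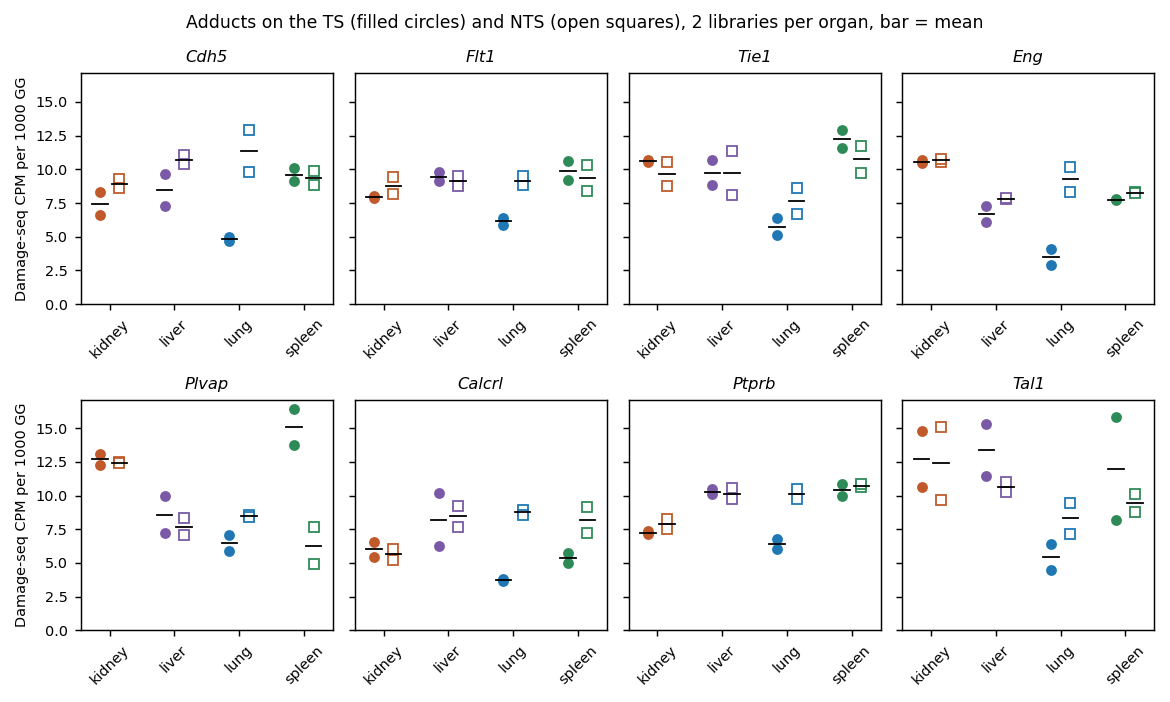
Damage-seq level in CPM per 1000 GG for the 8 genes that passed in lung, in each of the 8 libraries (filled circles TS, open squares NTS, bar for the mean of the 2 libraries of an organ). The TS circles of lung lie below those of every other organ, as for Eng at 2.87 and 4.10, while the NTS squares of lung overlap with the others.

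On the NTS no such fall was detected. For Cdh5 the NTS was at 9.79 and 12.9 in lung, 9.25 and 8.64 in kidney, 11.1 and 10.4 in liver and 8.82 and 9.85 in spleen, with a log2 difference of 0.24 ± 0.15 (adjusted p = 0.626). The median gene was between 8.54 and 9.72 on the NTS in all 8 libraries. No gene of the set passed on the NTS in lung, where 0.00495% of all genes did. At an unadjusted p under 0.05, 4 genes were higher in lung (Epas1, Gpihbp1, Nostrin and Sox17) and 0 lower, against 9.35% of all genes, and DESeq2 also called 0. Standard errors were wide for short genes such as Sox17 (1.24 ± 0.41) and Gpihbp1 (1.15 ± 0.52).

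The ratio of strands in Damage-seq put this within each library. In lung 18 of 35 genes had fewer adducts left on the TS than on the NTS and 0 had more (27.1% and 1.51% of all genes), with a median log2 ratio of -0.57 against -0.26 over all genes. The ratio was -1.41 ± 0.21 for Eng, -1.23 ± 0.19 for Cdh5, -1.23 ± 0.19 for Calcrl, -1.13 ± 0.14 for Epas1, -0.90 ± 0.11 for Fli1, -0.57 ± 0.09 for Flt1, -0.52 ± 0.13 for Tek and -0.50 ± 0.12 for Pecam1. Stab2, at 0.185 and 0.328 RPKM in untreated lung, had a ratio of -0.03 ± 0.09. Sox17 rested on 1 library, with -1.43 ± 0.51 from both and 0.08 without the second lung library. In kidney 2 genes were lower on the TS (20.9% of all genes), in liver 4 (32.7%) and in spleen 2 (13.1%), namely Podn and Epas1 in kidney, Ramp2, Podn, Epas1 and Nostrin in liver, and Pecam1 and Fli1 in spleen. Plvap was higher on the TS in spleen (1.24; 0.586% of all genes), though not without either spleen library, where 0 genes passed. Without the first kidney library 0 genes passed in kidney, and without the first liver library 2 passed in liver. With either library of the organ left out, the calls over all genes were 148 to 3493 in kidney. They were 4018 to 5352 in liver and 692 to 1253 in spleen.

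The difference of this ratio between lung and the other organs was tested as well. It was negative and passed for 6 genes (1.07% of all genes), and 0 genes passed in the other direction. These were Eng (-1.31 ± 0.25), Calcrl (-1.05 ± 0.22), Cdh5 (-1.04 ± 0.22), Ptprb (-0.62 ± 0.14), Fli1 (-0.56 ± 0.13) and Flt1 (-0.56 ± 0.11). In XR-seq the same difference was positive for 13 genes and negative for 2 (8.67% and 1.10% of all genes). Flt1 (1.601 ± 0.35), Eng (2.51 ± 0.31) and Fli1 (1.64 ± 0.25) passed in both assays, whereas Cdh5 (1.53 ± 0.78), Calcrl (0.41 ± 0.48) and Ptprb (0.82 ± 0.34) passed in Damage-seq only. The XR-seq count fell to 0 in both directions without the first and also without the second lung library. For the positive genes it fell to 5 and 3 without the first and the second liver library. It fell to 6 for them without the second spleen library. Over all genes the calls ranged from 0 to 4487 when 1 library at a time was left out.

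Across the 36 genes, the RNA level after cisplatin and the level of TS repair had Spearman's rho of 0.40 in lung, 0.34 in kidney, 0.47 in liver and 0.62 in spleen (n = 36 genes, which share libraries and are not independent replicates). RNA and TS damage had rho of -0.23, -0.25, -0.25 and 0.12 in the same order. In lung, levels of RNA spread more than those of repair. Tmem100, Epas1 and Flt1 were at 360, 345 and 10.1 RPKM in the first cisplatin library, and at 47.9, 53.6 and 31.7 on the TS in the first XR-seq library.

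For the RNA response to cisplatin, 0 of the 36 genes passed in lung, where 0.366% of all genes did, all of them lower (edgeR, change beyond 0.4 on the log2 scale). At an unadjusted p under 0.05 there were 2, both lower (Fli1 and Stab2), against 7.41% of all genes, and DESeq2 also called 0. This does not show that the genes did not change, since Cdkn1a did not pass in lung either. The median log2 change was -0.05 over the set and 0.01 over all genes tested, with 15 genes above 0 and 21 below. Fli1 was at 10.9 and 12.7 RPKM in the lung controls and at 4.986 and 6.501 RPKM after cisplatin, so the groups did not overlap, with a change of -1.12 ± 0.28 (adjusted p = 0.239). When each control library was counted as a replicate, Fli1 passed (-1.05, adjusted p = 0.0344). Sox7 was at 23.5 and 25.0 and then 15.7 and 13.2 RPKM (-0.80 ± 0.36), and Calcrl at 217 and 236 and then 114 and 165 RPKM (-0.76 ± 0.51). Both cisplatin libraries of these genes lay below both controls.

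Kdr was at 26.0 and 26.9 RPKM in lung controls and 21.6 and 16.3 RPKM after cisplatin (-0.52 ± 0.46), and Erg at 20.7 and 21.7 and then 12.9 and 16.5 RPKM (-0.58 ± 0.39). Tek was at 49.2 and 52.1 and then 31.2 and 53.8 RPKM, with overlap (-0.31 ± 0.38). Other genes had positive changes. Cldn5 was at 245 and 243 and then 396 and 357 RPKM (0.60 ± 0.38), Ramp2 at 68.5 and 68.6 and then 109 and 97.0 RPKM (0.55 ± 0.32) and Esam at 60.4 and 62.0 and then 87.3 and 83.2 RPKM (0.44 ± 0.24). In these genes both cisplatin libraries lay above both controls, although none passed. Lyve1 was at 132 and 142 and then 180 and 434 RPKM, a gap between the cisplatin libraries that was larger than its change over controls in the first of them (1.10 ± 0.79). Pecam1 (-0.19 ± 0.43), Cdh5 (-0.04 ± 0.50), Flt1 (-0.40 ± 0.36), Nos3 (0.27 ± 0.32), Vwf (0.15 ± 0.38), Plvap (0.45 ± 0.34), Car4 (0.06 ± 0.35), Ednrb (-0.23 ± 0.38), Apln (-0.74 ± 0.56), Sox17 (0.38 ± 0.54) and Gpihbp1 (0.22 ± 0.46) completed the genes followed in every comparison. Both cisplatin libraries lay above both controls for 12 genes of the set and below for 9, and 34.8% and 29.5% of all genes did so.

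Markers of other cells moved between the lung libraries. The summed level of 3 B cell markers went from 59.0 to 63.0 RPKM in controls to 14.01 to 18.5 RPKM after cisplatin, that of 3 T cell markers from 31.9 to 33.7 RPKM to 8.44 to 9.79 RPKM, and that of 4 markers of high endothelial venules from 60.4 to 64.7 RPKM to 3.57 to 4.99 RPKM, with all markers of each list lower in both cisplatin libraries. The 3 leukocyte markers went from 84.2 to 90.9 RPKM to 44.3 to 58.7 RPKM, the 7 pericyte and smooth muscle markers from 110 RPKM to 76.8 to 81.0 RPKM, the 3 neutrophil markers from 50.5 to 55.8 RPKM to 91.9 to 132 RPKM and the 2 cardiac muscle markers from 29.2 to 29.6 RPKM to 41.0 to 60.4 RPKM. All 4 alveolar type 2 markers were higher in both cisplatin libraries, from a sum of 12357 to 12628 RPKM to 13191 to 15309 RPKM, and all 3 erythroid markers lower, from 7218 to 7247 RPKM to 3128 to 3884 RPKM. The 6 endothelial markers summed to 544 to 551 RPKM and then 655 to 688 RPKM, 2 of them higher and 2 lower in both libraries. Fli1 is also expressed by leukocytes. What part these shifts had in the values of the set was not tested.

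The sign of the lung changes differed with the length of the gene. Of the 18 genes under 20 kb, 14 were above 0 with a median log2 change of 0.39, where 61.9% of all genes of that length were above 0 (median 0.13). Of the 11 genes of 20 to 100 kb, 0 were above 0 (median -0.19, against 46.5% and -0.03 for all genes), and of the 7 genes of 100 kb and more, 1 was (median -0.40, against 16.1% and -0.57). Cldn5 spans 1.42 kb, Esam 10.2 kb and Ramp2 13.5 kb, and Fli1 spans 121 kb, Erg 227 kb and Stab2 167 kb. Spearman's rho between length and change was -0.53 in lung, -0.77 in liver, -0.50 in spleen and -0.22 in kidney over the 36 genes, and -0.29, -0.38, -0.30 and -0.35 over 19088 genes, where genes share libraries. In liver 16 of 18, 1 of 11 and 0 of 7 genes were above 0 in the same classes, in kidney 14, 10 and 4, and in spleen 15, 6 and 1. The liver count of 16 and the liver rho of -0.77 include Aplnr, which had almost no reads in liver.

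**Figure D5:**
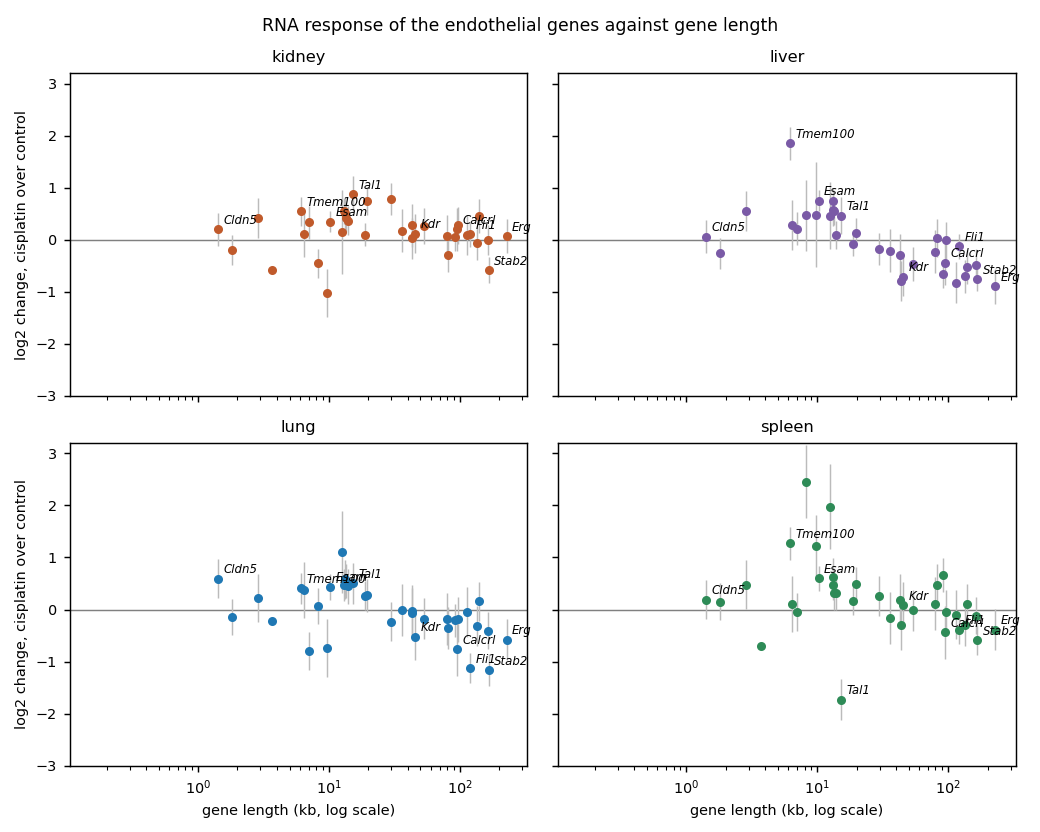
Log2 change of RNA after cisplatin against gene length (log axis, kb) for the 36 endothelial genes in each of the 4 organs; Aplnr is left out in liver, where it had 0 to 2 reads per library. In lung 14 of the 18 genes under 20 kb lie above 0 and 0 of the 11 genes of 20 to 100 kb do.

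In kidney 0 of the 36 genes passed (1.71% of all genes were higher and 1.41% lower), 0 had an unadjusted p under 0.05 (14.7% of all genes) and DESeq2 called 0. The median change was 0.16 (0.00 over all genes). Apln, at 10.7 and 14.6 RPKM in controls and 5.27 and 7.05 RPKM after cisplatin, had the lowest value (-1.02 ± 0.46), and Tal1 (0.88 ± 0.34), Ednrb (0.78 ± 0.31; 6.64 and 8.46 and then 11.46 and 14.02 RPKM) and Nos3 (0.74 ± 0.27) the highest. In these 4 genes the kidney groups did not overlap. Both cisplatin libraries lay above both controls for 9 genes and below for 3 (24.1% and 26.3% of all genes).

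In liver 1 gene passed, a higher one, where 0.408% of all genes were higher and 2.3% lower. Tmem100 rose from 0.299 and 0.473 RPKM to 1.24 and 1.48 RPKM (1.85 ± 0.31, adjusted p = 0.0155), and it passed neither without the first liver control nor without the second cisplatin library (0 genes each). The summed level of 4 alveolar type 2 markers, which mark lung epithelium, moved in the same libraries from 2.26 to 3.67 RPKM to 12.3 to 14.4 RPKM, with all 4 markers above both controls; their part in the Tmem100 value was not tested. Without the first cisplatin library 2 genes were called higher and 1 lower. At an unadjusted p under 0.05 there were 5 genes, Egfl7, Esam and Tmem100 higher and Erg and Stab2 lower, against 13.2% of all genes. Both cisplatin libraries lay above both controls for 5 genes and below for 10 (15.4% and 20.7% of all genes), among them the receptors Kdr (16.40 and 15.97 and then 13.5 and 5.88 RPKM, -0.71 ± 0.37), Flt1 (-0.48 ± 0.30), Flt4 (-0.80 ± 0.39) and Tek (-0.70 ± 0.32). None of these 10 passed. The median of the set was -0.05, or -0.09 without Aplnr, which was at or under 2 reads in every liver library.

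In spleen 0 genes passed (0.12% of all genes were higher and 0.0157% lower), 3 had an unadjusted p under 0.05 (Car4 and Tmem100 higher, Tal1 lower; 3.02% of all genes), and DESeq2 called 0. Tal1 was at 8.495 and 8.948 RPKM in controls and 3.17 and 2.27 RPKM after cisplatin, without overlap (-1.73 ± 0.39, adjusted p = 0.409), and it passed when each control library was counted as a replicate (-1.66, adjusted p = 0.0336). Tal1 is also a factor of the red cell lineage. The 3 erythroid markers summed to 9368 to 9481 RPKM in spleen controls and 6700 to 17359 RPKM after cisplatin. Of these markers 0 lay above and 0 below both controls in both cisplatin libraries, and their part in the Tal1 value was not tested. Tmem100 was at 0.574 and 0.481 and then 1.26 and 1.28 RPKM (1.27 ± 0.31), and Car4 stayed at or below 0.101 RPKM. Both cisplatin libraries lay above both controls for 21 genes and below for 9 (27.6% and 27.4% of all genes). In the same libraries the summed level of 3 pancreatic acinar markers went from 5.27 to 5.44 RPKM to 375 to 469 RPKM. Lung epithelial markers were also higher: the 4 of alveolar type 2 cells went from 1.44 to 1.49 RPKM to 3.37 to 3.84 RPKM, with 3 of them above both controls, the 4 of alveolar type 1 cells from 9.83 to 10.4 RPKM to 13.1 to 13.7 RPKM, and the 3 of club cells from 5.28 to 5.56 RPKM to 16.6 to 20.6 RPKM. All markers of T cells and of neutrophils (3 each) and 5 of the 7 of pericytes and smooth muscle lay above both controls too. The part of these shifts in the values of the set was not tested.

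Egfl7, Esam and Tmem100 lay above their controls in both cisplatin libraries of all 4 organs, and Lyve1, Nos3, Ramp2 and Robo4 did so in at least 3. These 3 genes compare with 3.13% of all genes above in 4 organs, and the 7 genes with 11.6% above in 3 or more. Stab2 lay below in all 4 organs (5.53% of all genes), and Erg in at least 3 (13.2%). Esam, for instance, was at 14.8 and 15.1 and then 18.1 and 19.3 RPKM in kidney, 7.85 and 9.85 and then 12.7 and 16.3 RPKM in liver, and 6.45 and 6.56 and then 10.3 and 10.0 RPKM in spleen. Stab2 was at 14.03 and 12.74 and then 9.13 and 6.39 RPKM in liver and at 11.2 and 12.2 and then 7.24 and 8.95 RPKM in spleen. The 7 higher genes are all under 20 kb, and Stab2 and Erg span 167 and 227 kb. The shares given are over genes of all lengths, and the part of length was not tested. Nor was that of the lung epithelial markers that were higher in liver and spleen after cisplatin. No difference in response between lung and the mean of the other organs passed for any gene of the set or of the genome in this fit (0 of 19100 genes in edgeR, 1007 at an unadjusted p under 0.05, that is 5.27%, of which 3 in the set, and 0 of the set in DESeq2).

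Ligands, receptors and regulators around these genes gave a similar picture between organs. Of 34 such genes, 27 were higher in untreated lung and 0 lower (18.3% and 5.85% of all genes), with a median log2 difference of 1.77. The higher genes were led by Edn1 (5.17), the endothelin ligand, and Jag2 (4.73), a Notch ligand. On the TS in XR-seq 24 were higher in lung (20.2% of all genes), led by Jag2 and Edn1 (2.56 each). Vegfb was the 1 lower gene (-0.58), where 14.1% of all genes were lower. In Damage-seq TS 6 of 33 were lower in lung (1.17% of all genes), led by Acvrl1, the receptor for BMP9 (-1.27), and Dll4, the Notch ligand of tip cells (-1.09). After cisplatin Adm, which encodes the ligand of the Calcrl and Ramp2 receptor, rose in kidney by 2.60, as did Klf4 (1.81). In liver the shear-responsive factors Klf4 (1.71) and Klf2 (1.31) rose. Of all genes, 1.71% were higher in kidney and 0.408% in liver. In lung 0 of the 34 passed (0.366% of all genes) and in spleen 0 (0.12% of all genes higher and 0.0157% lower). Of 24 further endothelial genes, 17 were higher in untreated lung, led by Foxf1 (6.80) and Thbd (4.82), and 1 lower, Exoc3l2 (-2.54). Of all genes, 18.3% were higher and 5.85% lower there. On the TS in XR-seq 18 were higher (20.2% of all genes), led by Foxf1 (3.80) and Myct1 (3.31). In Damage-seq TS 3 of 23 were lower (1.17% of all genes), led by Ushbp1 (-1.07) and Adgrf5 (-0.95). After cisplatin 0 passed in any organ, where at most 2.3% of all genes passed in either direction.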

How the data were processed

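Damage-seq and XR-seq (8 libraries each) and RNA-seq (16 libraries) of 4 mouse organs were taken as deposited. The authors deposited raw read counts per gene, without normalization, separately for TS and NTS in Damage-seq and XR-seq. Per the methods and the submitters' processing notes, reads were trimmed with cutadapt, aligned to mm10 with BWA and deduplicated with Picard, keeping a mapping quality above 20, a GG at the adduct position and, in XR-seq, a length of 21 to 31 nt. RNA-seq, poly-A selected with a kit that does not mark strand, was aligned with STAR and counted with featureCounts. Tool versions and the handling of overlapping genes are not given in the sources used here. Each Damage-seq and XR-seq file holds 1 line without an identifier (16 in all), which was left out.

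Genes were matched to GENCODE on GRCm38 (25041 of 25059), and GG were counted per strand in the gene. Tests used edgeR 4.0.16 in R 4.3.3 with TMM, its default filter on low counts, quasi-likelihood fits over all genes and Benjamini-Hochberg adjusted p-values called under 0.05. RNA-seq contrasts were tested against a log2 fold change of 0.4 in 1 fit of 14 samples, after the lung and the spleen control pairs were summed (index of at most 3 over genes with at least 20 reads). XR-seq and Damage-seq contrasts were tested against 0 over 8 libraries, and strand ratios with a block for the library and an offset for GG. Genes with under 10 GG were left out of the strand tests. RPKM used TMM-scaled totals and exon length. Levels were plotted as log2 with 0.1 added. Fits were tested on simulated data. Depth limits genes with few reads, and a count of 0 covers counting error only. DESeq2 1.42.0 and other settings were alternatives.

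All 36 genes were accounted for. Those given in full were, per comparison, up to 10 called in each direction and 16 genes fixed by name, and of the related lists the 2 largest calls per direction. The genes and lists were chosen with earlier results of these data known. Other genes, such as Emcn and Podn, were named after their values were seen.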

Additional observations from a re-analysis of the deposited data

Results flagged for a closer look

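The ratio of TS to NTS in XR-seq differed between lung and the mean of the other organs (a test of the difference itself in edgeR, on the log2 scale) for Vwf by 3.02, Car4 by 2.99, Eng by 2.51, Plvap by 2.39, Tie1 by 2.30, Egfl7 by 2.24, Flt4 by 2.14, Nos3 by 1.97, Nostrin by 1.84, Fli1 by 1.64, Flt1 by 1.6, Tek by 1.51 and Podn by 1.19, and in the opposite direction for Stab2 by -1.97 and Epas1 by -1.25. Eng, Egfl7, Nos3 and Plvap overlap a gene on the opposite strand (Fpgs, Agpat2, Atg9b and Gtpbp3), and Podn overlaps Scp2 on the same strand. The part of those neighbours was not tested. Car4 had 0 to 17 TS reads per library in liver and spleen. None of the differences in this ratio passed when either lung library was left out. Over all genes the calls ranged from 0 to 4487 when 1 library at a time was left out.

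In Damage-seq the ratio was lower in lung than in the other organs for Eng by -1.31, Calcrl by -1.05, Cdh5 by -1.04, Ptprb by -0.62, Fli1 by -0.56 and Flt1 by -0.56. Flt1, Eng and Calcrl passed without either lung library. Cdh5 and Ptprb did not pass without the second lung library, and Fli1 passed neither without the first or the second lung library nor without the second spleen library.

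Some RNA changes after cisplatin went in opposite directions in every library of a pair of organs, and these differences were not tested. Among these were small log2 changes, as for Epas1 (0.11 in spleen and -0.18 in lung). Others were at low levels, as for Apln, at a mean of 0.183 RPKM in spleen controls. In single organs, 15.4% to 34.8% of all genes lay above both controls in both cisplatin libraries, and 20.7% to 29.5% below. The share of all genes with opposite directions in a pair of organs was not counted. On the log2 scale the change of Tal1 was higher in kidney than in spleen by 2.61 and higher in lung than in spleen by 2.24. That of Apln was higher in spleen than in kidney by 2.23 and than in lung by 1.95. That of Emcn was higher in spleen than in liver by 1.32, that of Sox7 higher in kidney than in lung by 1.13, that of Vwf higher than in liver by 0.99 in kidney and by 0.63 in spleen, and that of Epas1 higher in spleen than in lung by 0.29.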

How the results depend on the processing

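The 34 higher genes and the 1 lower gene in untreated lung and the 0 calls in kidney RNA held under every alternative run. With each library counted as a replicate, 1 gene was lower in lung (Fli1) and 1 in spleen (Tal1), and with the organ's own lung libraries so counted, a setting chosen after seeing the data, 2 were (Fli1 and Sox7). A fit on the liver's own samples called 0 genes. The replicate numbers pair nothing that the labels name, and deviations of libraries with the same number correlated by 0.62 in kidney and 0.516 in liver but by 0.0921 in lung and 0.278 in spleen. With a replicate block (each library a replicate), the called genes were 2 higher in liver (Tmem100 and Esam), 1 lower in lung (Fli1), 1 higher and 1 lower in spleen (Tmem100 and Tal1), and 1 lower in lung minus the other organs (Fli1, -0.95, edgeR adjusted p = 0.0461). XR-seq NTS gave 17 higher and 1 lower gene with DESeq2, and 16 higher without the first kidney and spleen libraries (chosen after seeing the data). The strand ratio in XR-seq gave 1 lower gene in spleen without the GG offset. Among genes under 100 kb, its difference between lung and other organs gave 7 higher and 1 lower, and that of Damage-seq gave 3 lower. The cause was not tested, except that fewer genes entered the last of these.

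Leaving out 1 library at a time gave 0 to 2 genes higher and 0 to 1 lower in liver RNA, and 0 in either direction in the RNA of kidney, of lung and of spleen and in lung minus the other organs. Over all genes the calls were 169 to 2014 in liver, 98 to 291 in kidney, 0 to 66 in lung and 22 to 97 in spleen. They were 0 to 47 in lung minus the other organs. XR-seq TS gave 30 to 34 higher and 1 lower, and NTS 2 to 19 higher and 1 to 3 lower. XR-seq ratios gave 20 to 22 higher and 1 lower in lung, 21 to 23 and 1 in kidney, 10 to 13 and 0 to 1 in liver, and 20 to 22 and 0 in spleen, and 0 to 16 higher and 0 to 3 lower for lung against other organs. Damage-seq TS gave 1 to 10 lower and NTS 0. Damage-seq ratios gave 12 to 16 lower in lung, 0 to 2 in kidney, 2 to 4 in liver and 2 in spleen, 0 higher in any organ, and 4 to 6 lower for lung against other organs. Sox17 in the Damage-seq ratio of lung was at -2.91 without lung replicate 1 and changed sign, to 0.0821, without lung replicate 2. Damage-seq depth limits short genes.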
